A study of Mus musculus with 22 samples.

Results

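The loops described here are the short loops between cis-regulatory elements (CREs, promoters and enhancers) that a structural loop crosses. A CRE loop was taken as short when it spanned at most 200 kb. It was taken as crossed when at least 1 structural loop on the same chromosome had the midpoint of 1 anchor strictly inside it and the midpoint of its other anchor strictly outside. Loops that lay wholly under a structural loop were left out. These conditions use coordinates and the deposited loop categories, and no measured strength. They held for 416 of the 4642 CRE loops and of the 16370 loops in all. The 416 loops lay on 20 chromosomes, with 8 to 35 on each, and the summit bin was 10 kb wide in 372 of them and 25 kb wide in 44.

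In situ Hi-C, a map of which stretches of DNA touch each other inside the nucleus, was made from G1E-ER4 mouse erythroblasts, a subline of the GATA1-null proerythroblast line G1E, without induction of its GATA1 fusion protein. In the cells of both treatments the 2 CTCF alleles carried an auxin-inducible degron with mCherry, and the plant F-box protein OsTiR, which couples auxin to degradation, was supplied by a transgene. Cells were arrested in prometaphase with nocodazole and left untreated (−auxin) or given 1 mM auxin (+auxin) to remove CTCF. Sorting took cells at 4 stages, which the sample labels place at 0, 30, 60 and 120 min after release and which are called prometaphase, ana/telophase, early-G1 and, last, mid-G1. The protocol text gives another time for ana/telophase, and another version of the OsTiR transgene was used at that stage. In all 18 libraries cover the 8 conditions, with 2 replicates each and 3 in mid-G1, and 4 further libraries, made after triptolide, were left out.

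The loop table used here was made after the replicates of each condition had been merged, so each loop has 1 strength per condition and no replicate error. Contact maps of single replicates were not analysed here, and no difference between treatments was tested. The strength is the ratio of observed to locally expected contacts at the summit, and a value of 1 means no focal contact. Changes are given as log2(+auxin / −auxin). Each median comes with the SD of the values found chromosome by chromosome, a measure of spread over the genome that says nothing of cultures. Each share comes with a 95% Wilson interval for counting error alone. The contacts behind a single loop are not given in the tables used here, so it is not known how precise 1 loop's value is. Over all 16370 loops the median mid-G1 change was -0.38, which is the shift against which the values below can be read.

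As background, the ring-shaped cohesin complex extrudes chromatin into loops and is halted at CTCF bound to its motif, mostly where 2 motifs point towards each other, which gives structural loops. CRE loops join promoters and enhancers that carry active chromatin marks and many need no CTCF at their anchors. CTCF largely leaves mitotic chromosomes and rebinds at mitotic exit, when both kinds of loop are rebuilt.

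The 416 loops spanned 70 to 200 kb, with a median of 130 kb (quartiles 90 and 160 kb). They were crossed by 562 different structural loops in 738 pairs. A single structural loop crossed 230 of them, 2 crossed 107, and 3 or more crossed 79. Structural loops came in from both sides at 43 loops and from 1 side at 373. The loops are not independent of each other, since 143 structural loops crossed at least 2 of them, up to 5, and 109 shared an anchor midpoint with another. The anchor of a crossing structural loop that lies inside the CRE loop is called the inner anchor here, and the CRE anchor that lies within the structural loop is called the covered one. The distance between them, taken at its smallest (s_i-min), had a median of 60 kb (quartiles 40 and 97.5 kb).

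The inner anchors held the DNA motif of CTCF about as often as structural anchors in general. At the structural loops that reached over the downstream CRE anchor, 48 of 185 different inner anchor bins of 10 kb (25.9%, 95% Wilson interval 20.2 to 32.7%) held an exact match to the core CTCF motif. At those that reached over the upstream CRE anchor, 45 of 196 did (23.0%, 17.6 to 29.3%). Of all 10 kb bins of mm9 without unknown bases, 4.70% held a match, and of the anchors of all structural loops 25.5% upstream and 26.9% downstream did. The anchors of the crossed CRE loops themselves held one in 53 of 684 bins (7.75%, 5.97 to 10.0%), against 8.61% over the anchors of all CRE loops. The strand of the inner motifs followed the direction of the structural loop. Towards a downstream partner, 36 bins held the motif on the plus strand only and 8 on the minus strand only, and towards an upstream partner the counts were 8 and 34. Anchors of all structural loops were split in the same way, with 627 plus and 133 minus at upstream anchors and 164 and 633 at downstream ones. A motif match is a description of the sequence and not a bound site.

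Among the 30 CRE loops named by the rule given under the processing, 7 had a match at the inner anchor of the strongest structural loop that crossed them. The 6 sites below are shown because they stand between the 2 regulatory elements that the CRE loop joins. Each is printed 5′ to 3′ on the strand of the motif, from mm9, with the motif in capitals and 9 bases on either side, under the genes at the 2 CRE anchors. They lie at chr9:119929538-119929567 (plus strand), chr15:36638368-36638397 (minus), chr8:75204237-75204266 (plus), chr1:36336226-36336255 (minus), chr19:47065830-47065859 (minus) and chr6:114878642-114878671 (plus).
Csrnp1 to Rpsa: ccatgtacaCCACCAGAGGGCgcgcttagc
Pabpc1 to Ywhaz: aacacttggCCAGTAGAGGGCactgcagtg
Tmem38a to Sin3b: gagatatcaCCACCAGAGGGCatcgcagca
Arid5a to Uggt1: atctcctcgCCACCAGGGGGCagtgctgac
Cnnm2 to Ina and Nt5c2: gtaaatttaCCACTAGGGGGCagtgttgac
Vgll4 to 1500001M20Rik: tcttgactaCCACTAGGGGGCactgcgagc
The motif pointed to the outer anchor of the crossing structural loop at 5 of the 7 different sites found. It pointed the other way at the site of the Vgll4 loop and at 1 site that is not shown.

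With auxin, the crossed short CRE loops had higher median strengths at each post-mitotic stage, with the limit that 230 of the 416 were called with auxin only and so entered the list in part for their strength there. From prometaphase through ana/telophase and early-G1 to mid-G1, their median strength without auxin ran 1.05, 1.37, 1.40 and 1.24. With auxin it ran 1.07, 1.5, 1.64 and 1.54. The untreated course thus reached its highest median in early-G1 and came down by mid-G1, while the auxin-treated course stood higher at the same stages. Taken loop by loop, the log2 change had a median of 0.03 (SD 0.06) in prometaphase, then 0.12 (SD 0.07), 0.26 (SD 0.10) and, by mid-G1, 0.32 (SD 0.14). In prometaphase the change was smaller than its SD, and the chromosome medians were above 0 on 12 of 20 chromosomes. At each of the 3 post-mitotic stages they were above 0 on all 20, and in mid-G1 they ran from 0.08 on chromosome 15 (16 loops) to 0.63 on chromosome X (10 loops). The direction went with the treatment in which a loop was called. From ana/telophase to mid-G1 the medians were 0.20, 0.42 and 0.46 for the 230 loops called with auxin only, 0.12, 0.22 and 0.26 for the 93 called in both treatments, and -0.02, -0.08 and -0.10 for the 93 called without auxin only.

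**Figure D1:**
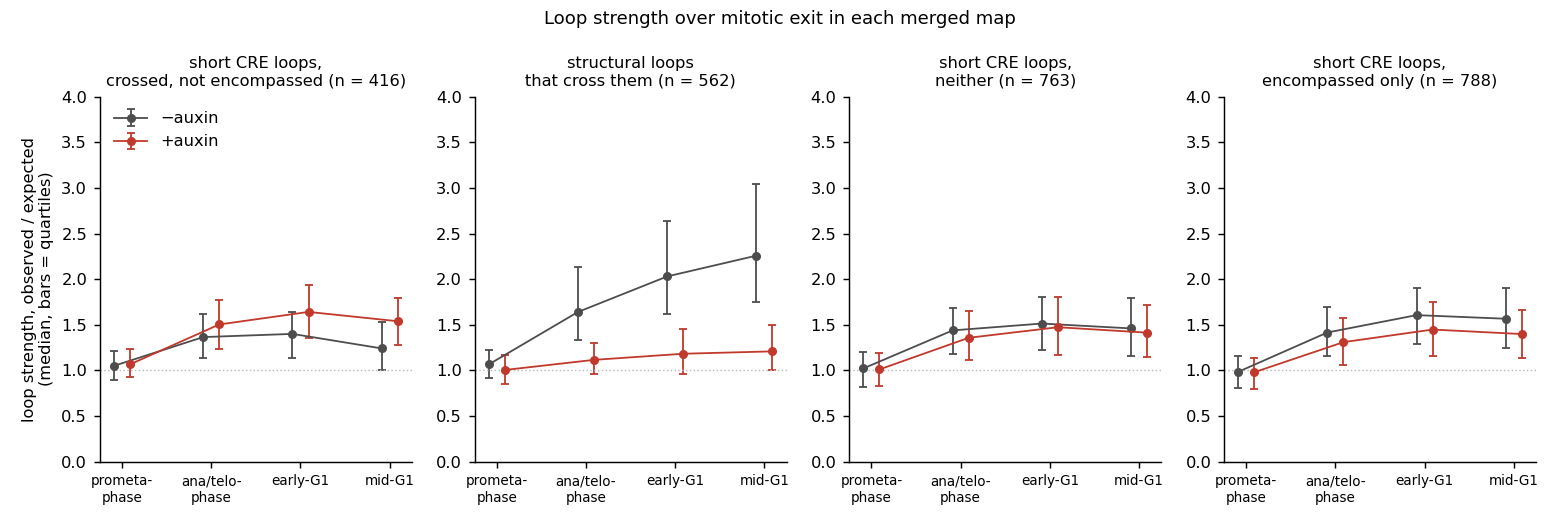
Median loop strength (vertical axis, observed over expected contacts) at the 4 stages (horizontal axis) in −auxin cells (grey) and +auxin cells (red), with bars for the quartiles over loops, for the 416 crossed short CRE loops, the 562 structural loops that cross them, and the 763 and 788 short CRE loops in the comparison groups. Of the groups drawn, the crossed CRE loops are the one whose red line lies above the grey one after mitosis, ending at 1.54 against 1.24. The 303 short CRE loops both crossed and encompassed are not drawn, and their medians were also higher with auxin, at 1.48 against 1.35 in mid-G1.

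A loop is called strengthened here when its log2 change with auxin was at least 0.32, a rise of 25%, and weakened when it was -0.32 or less. In mid-G1, 206 of the 416 loops (49.5%, 44.7 to 54.3%) were strengthened and 23 (5.53%, 3.71 to 8.16%) were weakened. Of the 206, 157 were called with auxin only. Among the 186 loops called without auxin 26.3% were strengthened and 12.4% weakened. With each loop's own prometaphase change subtracted, the shares of the 416 were 43.5% and 13.2%. Over all loops 8.20% were strengthened and 54.1% weakened, and over all CRE loops 18.3% and 20.2%. At all 3 post-mitotic stages, 247 crossed loops (59.4%, 54.6 to 64.0%) were stronger with auxin and 48 (11.5%, 8.81 to 15.0%) were weaker. Of all loops 12.5% were stronger and 61.4% weaker at all 3, and of all CRE loops 27.9% and 30.3%. At a limit of 1.5-fold in mid-G1, 80 crossed loops were stronger and 7 weaker, against 2.83% and 36.7% of all loops and 6.57% and 7.17% of all CRE loops. Relative to the shift of all loops in mid-G1, 81.25% of the crossed loops were strengthened and 0.721% weakened. That scaling lifts every loop alike, and with it 26.7% of all loops were strengthened and 30.3% weakened, and 54.2% and 4.67% of all CRE loops, whose own median change was -0.02. The mid-G1 changes of single loops ran from -0.90 to 1.61, with quartiles of 0.02 and 0.54.

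**Figure D2:**
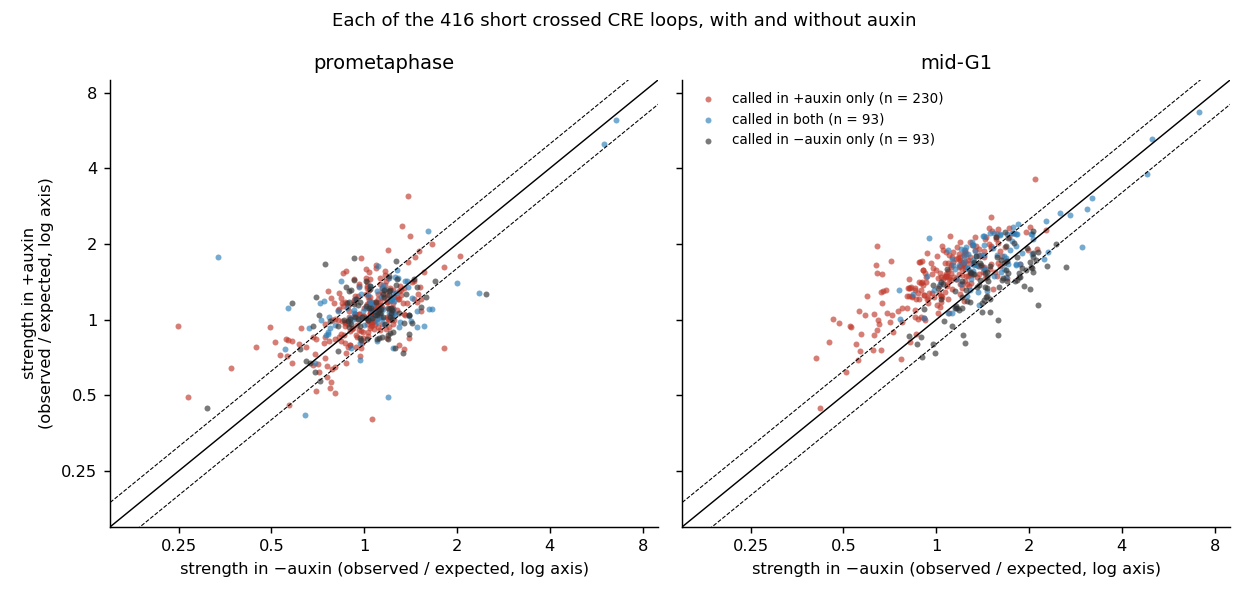
Strength of each of the 416 crossed short CRE loops in −auxin cells (horizontal, log axis) and in +auxin cells (vertical, log axis), in prometaphase and in mid-G1, coloured by the treatment in which the authors called the loop. The solid line marks equal strength and the dashed lines a log2 change of 0.32 either way. The cloud straddles the line in prometaphase, and in mid-G1 206 points lie on or above the upper dashed line and 23 on or below the lower one.

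The structural loops that crossed them were weaker with auxin. The 562 crossing loops had median strengths of 1.07, 1.64, 2.03 and 2.26 over the 4 stages without auxin, and 1.01, 1.12, 1.18 and 1.21 with auxin. In mid-G1 they changed by a median of -0.92 on the log2 scale (SD 0.19 over chromosomes), close to the -0.87 of all 4837 structural loops, and 542 of them were called in −auxin cells only. They are in the list through the treatment in which they were strong, so their fall with auxin is in part fixed by that choice and is given as a description. In untreated cells the crossing loops still gained strength between early-G1 and mid-G1, when the CRE loops they crossed lost it. Between these stages 303 of the 416 CRE loops (72.8%) fell without auxin, with a median log2 step of -0.13 (SD 0.06). With auxin 300 fell (72.1%), with a median step of -0.10 (SD 0.04), so this late step was of like size in both treatments. Of all CRE loops 57.9% fell between these stages without auxin and 63.3% with auxin, and of all loops 38.4% and 51.7%. The treatments parted earlier. From ana/telophase to early-G1 the median step was 0.02 without auxin (SD 0.06) and 0.13 with auxin (SD 0.06). Over all CRE loops it was 0.12 and 0.15, and over all loops 0.22 and 0.13. From prometaphase to ana/telophase the crossed loops rose by 0.37 without auxin (SD 0.11) and 0.46 with auxin (SD 0.12).

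From ana/telophase to mid-G1, 282 crossed loops (67.8%, 63.2 to 72.1%) were weaker in −auxin cells. The same held for 18.3% of all loops and 37.8% of all CRE loops. In +auxin cells it held for 186 of the crossed loops (44.7%, 40.0 to 49.5%), for 31.7% of all loops and for 36.4% of all CRE loops. For the 763 short CRE loops that were neither crossed nor encompassed, the shares were 42.6% without auxin and 41.9% with auxin. For the short CRE loops that were both crossed and encompassed they were 52.1% and 39.9%, and for those only encompassed 25.1% and 32.6%. The share that faded was thus lower with auxin in both crossed groups, level in the uncrossed group and higher with auxin in the encompassed group, and these differences were not tested. The groups also differ in calls, with 55.3% (crossed), 45.5% (crossed and encompassed), 23.2% (uncrossed) and 11.9% (encompassed) called with auxin only. Without auxin, 64.5% of the 93 crossed loops called in both treatments faded, and 53.2% of the 186 called without auxin.

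By the authors' calls, 230 of the crossed loops (55.3%, 50.5 to 60.0%) were called with auxin alone. A further 93 (22.4%) were called in each of the treatments and 93 (22.4%) without auxin alone. Over all loops 14.6% were called in +auxin cells only, and over all CRE loops 30.4%. Calls in both treatments made up 14.4% of all loops and 25.2% of all CRE loops, and calls without auxin alone 71.1% and 44.5%. Ana/telophase was the stage of first detection for 71 loops without auxin, early-G1 for 72 and mid-G1 for 43. With auxin these numbers were 99, 184 and 40. No such count was made over all loops, so it is not known whether these stages are particular to the crossed loops. A loop is in the deposited list because it was called in at least 1 treatment, so the loops called with auxin only were chosen in part for being strong there. Their mid-G1 changes had an SD of 0.16 over chromosomes, and 157 of 230 were strengthened. The 93 loops called in both treatments are less open to this choice. The SD was 0.15 here, and 40 of them (43.0%, 33.4 to 53.2%) were strengthened and 3 weakened. Of the 93 loops called in −auxin cells only (SD 0.25), 9 were strengthened and 20 weakened.

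The change was then set against that of the other short CRE loops, grouped by their place under structural loops. The 303 that were both crossed and encompassed had a median mid-G1 change of 0.15 (SD 0.18), the 763 that were neither -0.05 (SD 0.06), and the 788 that were only encompassed -0.15 (SD 0.06). The crossed loops without an encompassing one stood highest, at 0.32 (SD 0.14). Among loops called in both treatments the order was the same, with 0.26 for crossed loops, 0.14 for crossed and encompassed loops (71 loops, SD 0.25), -0.01 for neither (242 loops, SD 0.08) and -0.06 for encompassed loops (264 loops, SD 0.06). In that subset 43.0% of the crossed loops, 33.8% of the crossed and encompassed ones, 9.50% of the uncrossed ones and 3.03% of the encompassed ones were strengthened. The 2 crossed groups overlapped within 1 SD, and no difference between groups was tested.

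Within bins of size the crossed loops had the highest median, and the medians were smaller in longer crossed loops. In loops of 70 to 100 kb the median change was 0.40 when crossed (140 loops, SD 0.31) and -0.08 when neither crossed nor encompassed (389 loops, SD 0.08). Over 100 to 150 kb the values were 0.30 (149 loops, SD 0.17) and -0.01 (214 loops, SD 0.12), and over 150 to 200 kb 0.25 (127 loops, SD 0.19) and -0.03 (160 loops, SD 0.16). In the last of these bins the 2 groups overlapped within 1 SD. Loops both crossed and encompassed had 0.17 (SD 0.23), 0.15 (SD 0.18) and 0.13 (SD 0.43) in the same bins and overlapped with the crossed loops in each. Beyond the size limit the crossed loops came down further, to 0.19 at over 200 to 300 kb, 0.12 at over 300 to 500 kb and -0.04 above that. Just inside the limit, the 20 crossed loops of 190 kb had a median of 0.36 and the 25 of 200 kb 0.01. Just outside it, the 26 of 210 kb had 0.17 and the 17 of 220 kb -0.04.

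**Figure D3:**
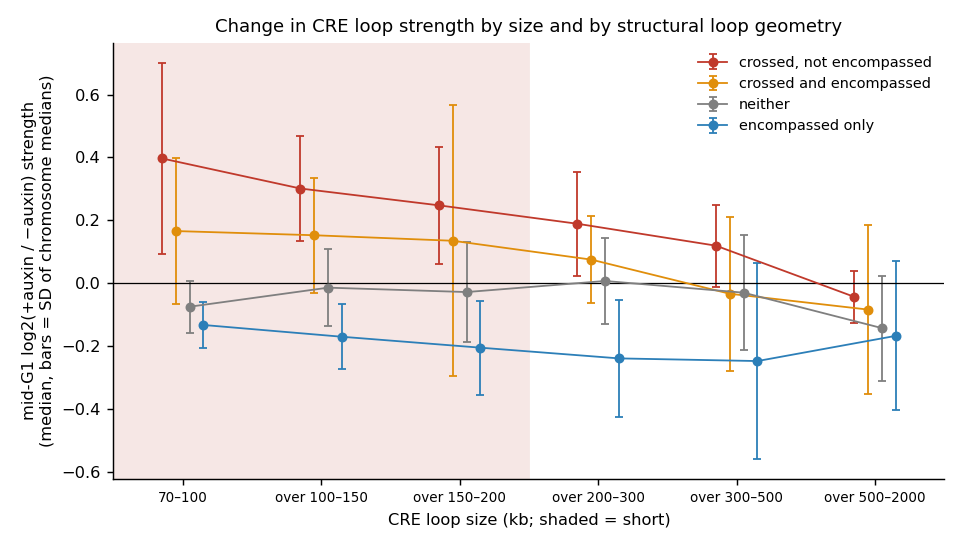
Median mid-G1 log2 change (vertical axis) of CRE loops in 6 size bins (horizontal axis, kb) for 4 arrangements relative to structural loops, with bars for the SD over chromosomes. The shaded bins hold the short loops. In each shaded bin the red points of the crossed loops, at 0.40, 0.30 and 0.25, lie highest and the blue points of encompassed loops lie lowest. The crossed loops also had the largest share called with auxin only in each shaded bin.

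Within the 416 loops the change was described by how a structural loop lay across them. With an inner anchor at most 30 kb from the covered CRE anchor, the median mid-G1 change was 0.43 (91 loops, SD 0.30), and 61.5% (51.3 to 70.9%) were strengthened. Over 30 to 60 kb it was 0.38 (139 loops, SD 0.16), and over 60 kb 0.19 (186 loops, SD 0.22), with 39.8% (33.0 to 47.0%) strengthened. Loops in the last class were also longer, with a median of 160 kb against 110 and 100 kb. Across the 416 loops, Spearman's rho between this distance and the change was -0.25, and that between loop size and the change -0.16. These loops share structural loops, maps and depth. The share called with auxin only moved with the distance too, at 63.7, 60.4 and 47.3%. Among the 93 loops called in both treatments the medians of the 3 classes were 0.25 (19 loops), 0.33 (36 loops) and 0.13 (38 loops), so the first step was not seen there.

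Loops crossed once had a median change of 0.26 (SD 0.17), those crossed by 2 structural loops 0.39 (SD 0.26) and those crossed by 3 or more 0.41 (SD 0.24). Of these classes 50, 59.8 and 64.6% were called with auxin only. Among loops called in both treatments the medians were 0.21 (56 loops), 0.39 (21 loops) and 0.24 (16 loops), with no steady rise. The median was 0.32 both for loops crossed from 1 side and for those crossed from both. The change also went with that of the strongest crossing loop, defined by its mid-G1 strength without auxin. Where that loop lost at least 1 on the log2 scale, the CRE loop changed by 0.40 (206 loops, SD 0.16). Where it lost 0.5 to below 1, the median was 0.27 (135 loops, SD 0.26), and where it lost less than 0.5, 0.12 (75 loops, SD 0.17). The shares called with auxin only were 60.7, 52.6 and 45.3%. Loops called in both treatments had medians of 0.32 (48 loops), 0.27 (26 loops) and 0.03 (19 loops), in the same order. Spearman's rho between the 2 changes was -0.28 over the 416 loops. The spread of single loops within each class was wider than the distance between classes.

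**Figure D4:**
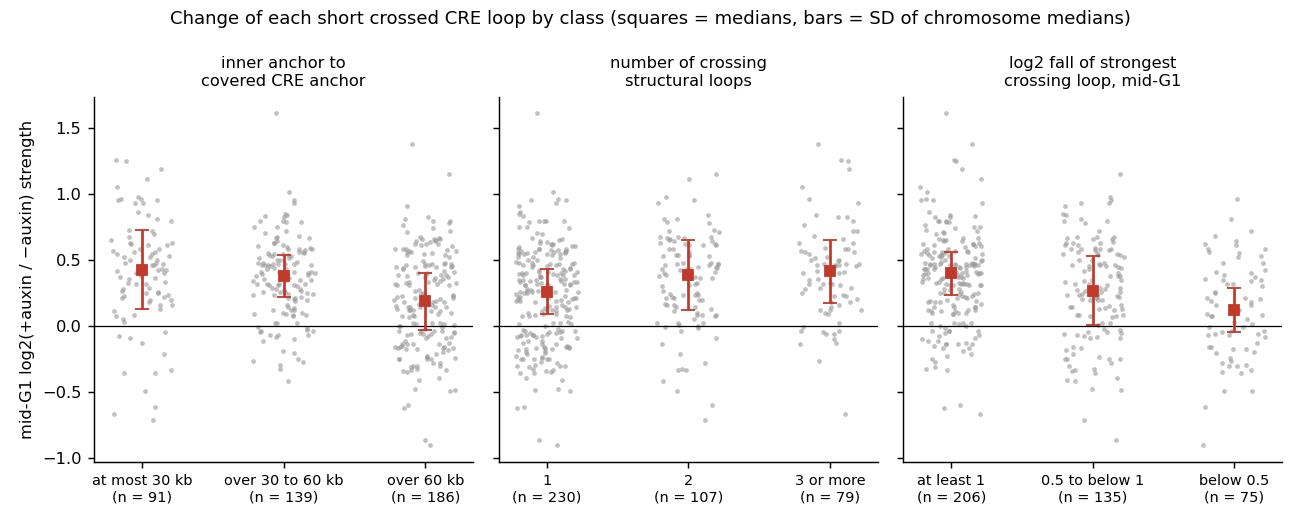
Mid-G1 log2 change of each of the 416 loops (grey points) by the distance of the inner anchor from the covered CRE anchor, by the number of crossing structural loops, and by the log2 fall of the strongest crossing loop. Red squares are medians and bars the SD of single-chromosome medians. The medians step down from 0.43 to 0.19 with distance and from 0.40 to 0.12 with a smaller fall, inside a wide scatter of points.

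The mid-G1 change of a loop went with its change at the earlier post-mitotic stages and not with that in prometaphase. The 230 loops called with auxin only were all first detected after prometaphase. This pattern is thus in part fixed by the calls and is given as a description. Spearman's rho between the mid-G1 change and the change of the same loop was -0.01 in prometaphase, 0.59 in ana/telophase and 0.76 in early-G1, over 416 loops measured in maps of different cells. Loops that were weak without auxin in mid-G1 had the larger changes (rho -0.60), but that strength is the denominator of the change.

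A domain boundary, a position across which contacts are depleted, lay between the anchors of 124 of the 416 loops (29.8%, 25.6 to 34.4%). The share was 19.7% for boundaries at least 20 kb inside, a count not made for the other groups. In the other short groups this share was 18.5% (14.5 to 23.2%) in crossed and encompassed loops, 9.57% (7.68 to 11.9%) in uncrossed ones and 4.82% (3.53 to 6.55%) in encompassed ones. The groups differ in size, and longer loops held a boundary more often. In loops of 70 to 100 kb the shares of crossed, crossed and encompassed, uncrossed and encompassed loops were 24.3, 8.20, 4.88 and 2.32%, over 100 to 150 kb 25.5, 19.4, 10.3 and 6.51%, and over 150 to 200 kb 40.9, 34.2, 20.0 and 13.3%. Boundaries were called by another method than loops, but on the same merged maps. Each crossed loop holds a structural anchor by definition, and the paper describes CTCF as frequent at boundaries and at such anchors. A higher share with a boundary is thus in part fixed by the choice of loops and is given as a description. Boundary strength (ΔIS) is the highest insulation score within 120 kb minus the score at the boundary. For the 112 different boundaries inside crossed loops the median ΔIS in mid-G1 was 0.760 without auxin and 0.411 with auxin. Their median log2 change was -0.86 (SD 0.38), against -0.48 (SD 0.06) for all 6376 boundaries. Boundaries inside crossed and encompassed loops changed by -0.75 (SD 0.58), those inside uncrossed ones by -0.59 (SD 0.71) and those inside encompassed ones by -0.34 (SD 0.68), each within its own SD of the value in crossed loops. These groups hold 54, 72 and 36 boundaries, so few lie on each chromosome, and such an SD is not the error of a group's median. No difference between them was tested. Of the 124 loops, 111 had a weaker inner boundary with auxin when the strongest was taken (89.5%), against 75.5% of all boundaries. Of the 111 loops 94 were themselves stronger, and of all 416 crossed loops 77.2% were. The strongest inner boundary lay within 20 kb of the inner anchor of the strongest crossing loop at 69 loops.

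The loops with an inner boundary had a median mid-G1 change of 0.37 (SD 0.21) and those without one 0.29 (SD 0.18), less than either SD apart. The shares called with auxin only were 63.7 and 51.7%. Among the 124, rho between the change of the boundary and that of the loop was -0.28.

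Gene starts lay at most anchors. A transcription start of a protein-coding gene lay within 15 kb of both anchor midpoints at 304 of the 416 loops (73.1%, 68.6 to 77.1%), of 1 at 102 and of neither at 10. Both anchors had one in 53.5% of crossed and encompassed, 64.0% of uncrossed and 37.8% of encompassed short CRE loops. The median mid-G1 change was 0.34 (SD 0.15) with starts at both anchors and 0.21 (SD 0.35) with 1.

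Of the listed gene groups, erythroid transcription regulators had a start at 6 of the 416 loops, at Gata1, Max, Hhex and Cbfa2t3. Of these loops 4 were strengthened in mid-G1 and 0 weakened, with a median change of 0.77, against -0.03 over the 57 CRE loops of any arrangement with such a start. Over all 416 crossed loops 49.5% were strengthened and the median was 0.32, and these lists are too short to be set apart from it. Genes of haem, globin and iron handling had a start at 6 loops (Fech, Hmox1, Slc11a2, Slc25a38 and Tfrc), of which 4 were strengthened and 1 weakened, with a median of 0.41 against 0.15 over 28 CRE loops. Cell cycle genes had a start at 7 loops (Ccna2, Cdk2, Cdk6, Cdkn1b, E2f1 and E2f2), 4 of them strengthened and 0 weakened, with a median of 0.56 against 0.11 over 36. The red cell membrane, cytokine signalling and chromatin architecture lists had 1 loop each, at Epb4.2 (0.07), Socs3 (0.41) and Mau2 (0.45). These are small counts, and several of the loops share an anchor.

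The largest change was at Gata1, which encodes the master regulator of erythroid transcription. The loop joined its start, in chrX:7540001-7550000, to Suv39h1, a histone H3 lysine 9 methyltransferase, whose start lies within 15 kb of the midpoint of chrX:7640001-7650000. G1E-ER4 cells lack a functional Gata1 gene product, so the gene here names a locus. In stage order, the loop had strengths of 1.21, 0.81, 0.64 and 0.64 without auxin, and of 1.11, 1.87, 1.85 and 1.96 with auxin. It stood below 1 at each post-mitotic stage without auxin and near 1.9 at each with auxin, and its mid-G1 change was 1.61. The structural loop across it ran from chrX:7490001-7500000 to chrX:7590001-7600000, covered the Gata1 anchor, and rose without auxin from 1.20 to 2.14, 2.66 and 2.89. With auxin it stood at 1.40, 1.06, 1.01 and 0.90. The same structural loop crossed a second loop from the Gata1 anchor, to chrX:7670001-7680000 beside Was, a regulator of actin in blood cells. That loop, like the first, was called with auxin only, and had strengths of 1.21, 1.5, 1.32 and 1.24 without auxin. It stood at 1.10, 2.43, 2.02 and 1.89 with auxin.

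The promoter of Gata1 is shown because both loops start there. It is the RefSeq window of 250 bases before to 50 after the start, taken from a table on GRCm38 and matched exactly to mm9 at chrX:7544987-7545286 on the minus strand. The capitals mark the letters CCNCNCCC or its reverse complement, the form of site bound by Krüppel-like factors (KLFs), on either strand.
Gata1 promoter: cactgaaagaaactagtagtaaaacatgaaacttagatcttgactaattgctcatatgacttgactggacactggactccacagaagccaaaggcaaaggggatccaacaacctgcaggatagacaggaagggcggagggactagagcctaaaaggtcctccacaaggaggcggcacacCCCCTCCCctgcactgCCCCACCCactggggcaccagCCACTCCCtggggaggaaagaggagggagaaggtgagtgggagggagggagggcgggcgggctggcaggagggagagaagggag
It held 3 matches to CCNCNCCC and none to AGATAA, the form of site bound by GATA factors. Of 32851 promoter windows, 49.5% held a match to the first and 11.2% to the second on either strand.

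The second largest change was at Max, the partner of Myc in binding DNA. The loop joined its start in chr12:78060001-78070000 to chr12:78230001-78240000, where no protein-coding gene is annotated. Its strengths were 1.33, 0.94, 0.69 and 0.64 without auxin and 1.17, 1.36, 1.57 and 1.66 with auxin. The untreated values came down from stage to stage and the auxin-treated ones went up, to a mid-G1 change of 1.38. A shorter loop from the same anchor to chr12:78160001-78170000 stood at 0.68, 0.64, 0.66 and 0.89 without auxin and at 0.85, 1.44, 1.60 and 1.69 with auxin. Both were crossed by 3 structural loops. The strongest of these, of 790 kb, went from 7.07 without auxin to 1.55 with auxin in mid-G1, and the boundary beside its inner anchor went from a ΔIS of 1.42 to 0.50.

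On chromosome 11 a loop joined the region of Spns2, a transporter of sphingosine 1-phosphate, to the start of Ube2g1, a ubiquitin-conjugating enzyme (chr11:72290001-72300000 to chr11:72420001-72430000). It had strengths of 1.02, 0.95, 0.83 and 0.71 without auxin and 1.16, 1.42, 1.61 and 1.70 with auxin, and 6 structural loops crossed it. A boundary at the inner anchor of the strongest went from 1.04 to 0.19.

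On chromosome 1, 2 neighbouring loops left the shared start region of Srgap2 and Fam72a (chr1:133420001-133430000) for Ctse, an aspartic protease. The one ending at the Ctse start (chr1:133530001-133540000) had strengths of 0.57, 0.97, 1.45 and 0.64 without auxin and 0.46, 2.44, 1.71 and 1.53 with auxin. Without auxin it peaked in early-G1 and was below 1 in mid-G1, while with auxin it peaked in ana/telophase and stayed above 1.5. The second, ending over an exon of Ctse, changed by 1.19 in mid-G1. It already differed in prometaphase, at 0.37 without and 0.64 with auxin, a change of 0.80, and its early-G1 change was 0.12.

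The remaining loops named for the largest gains ended near Plekhf2 (mid-G1 change 1.15), between Klc2 and Pacs1 (0.97), and between Usp11 and Araf (0.96). In prometaphase their changes were -0.24, 0.65 and 0.08, so the Klc2 loop already differed there. Of the 8 loops named for the largest gains, 7 were called with auxin only. The Plekhf2 loop was called in both treatments and kept 1.62 and 1.56 in ana/telophase and early-G1 without auxin before it came down to 0.95, against 2.04, 2.30 and 2.11 with auxin.

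**Figure D5:**
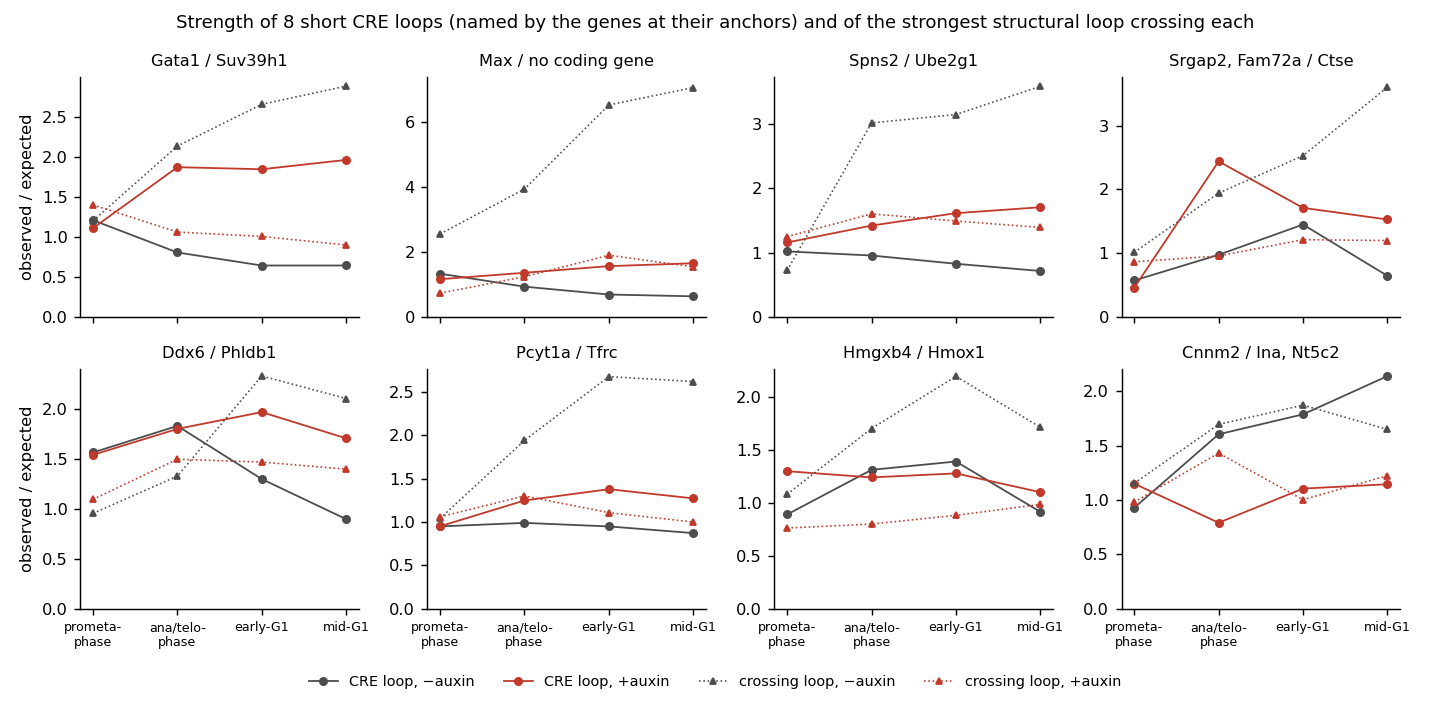
Strength (vertical axis, observed over expected contacts, a scale per panel from 0) at the 4 stages (horizontal axis) of 8 crossed CRE loops, named by the genes at their anchors, as solid lines with circles, and of the strongest structural loop across each, as dotted lines with triangles, without auxin (grey) and with auxin (red). At Gata1 the red solid line ends at 1.96 and the grey one at 0.64 while the dotted grey line climbs to 2.89, and at Cnnm2 the order of the solid lines is reversed, at 2.14 without and 1.14 with auxin.

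The next 4 loops were chosen for the largest fall between ana/telophase and mid-G1 without auxin, so that fall is a description. All 4 were called with auxin only, so they are in the list for their strength there. The loop between Ddx6, an RNA helicase of mRNA decay, and Phldb1 (chr9:44420001-44430000 to chr9:44550001-44560000) fell from 1.83 in ana/telophase to 1.30 and 0.90 without auxin, and stood at 1.80, 1.97 and 1.71 with auxin. Both treatments started from 1.56 and 1.54 in prometaphase. The loop between Pabpc1, the cytoplasmic poly(A)-binding protein, and Ywhaz, a 14-3-3 protein, fell from 1.73 to 1.12 and 0.97 without auxin and had 1.79, 2.02 and 1.52 with auxin. In prometaphase it already differed, with 1.89 in +auxin cells against 1.19, and its log2 change there was 0.66, next to 0.65 in mid-G1. The structural loop across it, whose inner motif is printed above, went from a mid-G1 strength of 2.90 to 1.00. The loop between Chchd10 and Zfp280b fell from 1.76 to 0.98 without auxin and from 1.89 to 1.60 with auxin. The loop between Nfkbiz, an inhibitor of NF-κB, and Fam55c fell from 0.96 to 0.53 without auxin and had 0.98 and 0.94 with auxin, so that it was near 1 at best in any map. In prometaphase it had 0.77 and 0.54, and the Chchd10 loop 1.12 and 1.18.

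The haem and iron genes gave smaller changes. The loop from Pcyt1a, an enzyme of phosphatidylcholine synthesis, to Tfrc, the transferrin receptor that brings iron into erythroblasts (chr16:32425001-32450000 to chr16:32600001-32625000), had strengths of 0.95, 0.99, 0.95 and 0.87 without auxin and 0.95, 1.2, 1.38 and 1.27 with auxin, a mid-G1 change of 0.55. The structural loop across it went from 2.62 to 1.00 and the boundary inside it from 1.37 to 0.50. The loop from Csrnp1 to Rpsa, a ribosomal protein, whose window also holds the start of Slc25a38, the mitochondrial glycine carrier needed for haem synthesis, went from 1.19 to 1.83 in mid-G1. Here the strongest crossing loop was weak in both treatments, at 1.17 and 1.08. The loop at Fech, which inserts iron into haem, went from 0.71 to 0.98 and stayed below 1. The loop from Hmgxb4 to Hmox1, which breaks haem down, was called in −auxin cells only and went from 0.91 to 1.10, after changes of -0.08 and -0.12 at the earlier stages. At Slc11a2, an iron transporter, the loop went from 0.99 to 0.74, a change of -0.42.

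The Tfrc promoter is shown because it lies at an anchor of 1 of these loops. It is the RefSeq window at chr16:32608732-32609031 of mm9 on the plus strand, with matches to CCNCNCCC on either strand in capitals.
Tfrc promoter: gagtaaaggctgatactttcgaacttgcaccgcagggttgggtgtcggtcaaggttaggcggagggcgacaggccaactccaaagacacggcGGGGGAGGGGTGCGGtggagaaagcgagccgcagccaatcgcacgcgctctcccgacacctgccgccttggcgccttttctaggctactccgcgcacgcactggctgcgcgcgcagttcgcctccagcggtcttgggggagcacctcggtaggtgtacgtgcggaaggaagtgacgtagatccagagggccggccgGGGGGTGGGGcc
It held 5 matches, some overlapping, and none to AGATAA.

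Other erythroid regulators did not follow Gata1 and Max. The loop between Hhex, a homeobox factor of early blood cells, and Exoc6, which takes part in transferrin recycling, had mid-G1 strengths of 2.12 without and 1.9 with auxin although its crossing loop went from 1.65 to 0.80. The loop between Cdt1, a licensing factor of DNA replication, and Cbfa2t3, a corepressor in erythroid complexes, had 1.04 and 1.17 although its crossing loop went from 3.65 to 1.61. In both, the crossing loop lost strength and the CRE loop was neither strengthened nor weakened.

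The 4 crossed loops with the highest mid-G1 strength with auxin differed among themselves. The loop from Tmem38a to Sin3b, a corepressor subunit (chr8:75090001-75100000 to chr8:75240001-75250000), stood at 1.67, 2.50, 1.78 and 2.08 without auxin and at 2.00, 3.05, 3.58 and 3.61 with auxin, a mid-G1 change of 0.79. The structural loop across it was short and weak, at 1.32 without and 0.78 with auxin in mid-G1. The other 3, a pair from Tbc1d14 on chromosome 5 and 1 beside Zfp68, were strong in mid-G1 in both treatments, with mid-G1 changes of 0.07 and -0.35 for the pair and -0.09 for the third. The loop from Tbc1d14 to D5Ertd579e had 6.55, 5.06, 5.14 and 5.00 without auxin and 6.25, 4.95, 5.10 and 5.25 with auxin. The second loop from Tbc1d14 had 1.61, 4.12, 4.78 and 4.84 without auxin and 2.26, 3.52, 3.83 and 3.79 with auxin. The loop beside Zfp68 had 5.97, 6.14, 6.21 and 7.12 without auxin and 4.98, 8.30, 6.49 and 6.69 with auxin. It differed between treatments most in ana/telophase. The Zfp68 loop and that to D5Ertd579e had strengths near 5 or above in prometaphase, where the median of the crossed loops was 1.05.

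The loops that lost most with auxin gained strength through mitotic exit in untreated cells. They were chosen among loops weaker with auxin at all 3 post-mitotic stages and of at least 1.5 in mid-G1 without auxin. Their high untreated mid-G1 strength is thus in part fixed by that choice and is given as a description. The loop from Cnnm2 to the starts of Ina and Nt5c2 (chr19:46950001-46960000 to chr19:47080001-47090000) had strengths of 0.93, 1.60, 1.79 and 2.14 without auxin and 1.15, 0.79, 1.10 and 1.14 with auxin, a mid-G1 change of -0.90. The loop from Uggt1 to Arid5a, a DNA-binding protein, stood at 0.90, 1.22, 1.47 and 1.58 without auxin and at 1.01, 1.02, 1.01 and 0.87 with auxin. The loop from Vgll4, a cofactor of TEAD factors, rose to 2.64 without auxin and reached 1.61 with auxin. That from Celsr2 to Tmem167b had 1.59 and 1.00. All 4 were called in −auxin cells only. Their strongest crossing loops changed by -0.43 to -1.02 on the log2 scale in mid-G1. At the Cnnm2 and Uggt1 loops the inner anchor lay 110 and 130 kb from the covered anchor and so close to the other one, and at the Vgll4 and Celsr2 loops an inner anchor lay 2.5 and 10 kb from the covered one.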

How the data were processed

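The authors aligned Hi-C reads to mm9 (Bowtie2 is named in the submitters' processing notes) within HiC-Pro, pooled replicates by condition and built maps with juicer_tools. Loops came from a modified HICCUPS run on bins of 10 and 25 kb, and boundaries from rGMAP. In the deposited table, loop strength is the ratio of contacts seen to contacts expected locally, with the summit pixel and the 8 pixels around it averaged. The deposited boundary strength is a signal, the difference ΔIS of unlogged insulation scores. Loop categories and stages of first detection are the authors' own and were taken as given.

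The loops were chosen by coordinates as described, and this choice, the gene lists and the classes were made with earlier results of these data known. Groups follow the sample labels. Log2 ratios had no pseudocount. A boundary counted as inside a loop when the midpoint of its 10 kb bin lay between the anchor midpoints. Genes are the protein-coding ones in GENCODE vM1, on NCBIM37 (mm9), named at an anchor by a start in the summit bin, else by a start in the 30 kb window around the midpoint, else by the gene body. Named loops were the 8 with the largest gain and the 4 with the largest loss among loops changed the same way at all 3 post-mitotic stages with at least 1.5 in mid-G1 in the stronger treatment, the 4 strongest with auxin, the 4 with the largest fall from ana/telophase to mid-G1 without auxin, and the first 12 by list order with a list gene. The core CTCF motif was searched as exact matches to its degenerate consensus on both strands of mm9. One matching site at a named loop is not reported here. Of 52 genes with a start at the named loops, chromosome 18 left out, 39 had a RefSeq promoter that matched mm9 exactly. The alternatives are given in the closing section. The geometry was tested on simulated data against a comparison of every pair of loops. Scripts ran in Python 3.11.15, with scipy 1.17.1, pandas 2.3.3, numpy 2.4.6 and matplotlib 3.10.9.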

Additional observations from a re-analysis of the deposited data

How the results depend on the processing

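The median mid-G1 change stayed above 0 under every alternative run, from 0.0711 to 0.695, and 65 of 90 recomputed values lay within the interval or SD of the reported one or, for the number of loops, within 1.5 times it. Centring on the median of all loops gave a median of 0.695, with 81.25% of loops strengthened and 0.721% weakened. Subtracting each loop's own prometaphase change gave 43.5% strengthened and 13.2% weakened, and a 1.5-fold limit 19.2% and 1.68%. Crossing by at least 20 kb gave 54.9% strengthened and 74.6% fading after ana/telophase without auxin. With encompassed loops kept there were 719 loops, 41.6% strengthened, 8.48% weakened, 61.2% fading and 25.0% with an inner boundary. A strength of at least 1 in both mid-G1 maps gave 41.2% strengthened and 60.4% fading. The share with an inner boundary was 24.9% at a size limit of 150 kb, 36.5% at 250 kb and 19.7% for boundaries at least 20 kb inside. In alternatives chosen after seeing the data, loops called in both treatments gave 43.0% strengthened and 3.23% weakened, and the 186 loops called without auxin a median of 0.0711, 26.3% strengthened, 12.4% weakened and 53.2% fading. Both leave out the loops called with auxin only, and the second keeps the 93 called without auxin only. The causes of the other shifts were not tested.

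No paired analysis was possible because the loop table used here holds 1 value per condition, measured after replicates had been merged, and contact maps of single replicates were not analysed here. For the same reason the fits without a replicate were not run, and differences between cultures, sorts or depths of the 8 maps cannot be told apart from treatment or stage.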
